A study of Mus musculus with 36 samples.

Results

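Ifih1, Ddx58, Dhx58, Tlr3 and Eif2ak2 encode the MDA5, RIG-I, LGP2, TLR3 and PKR proteins, which bind double-stranded RNA. The 5 genes were chosen by their symbol in the annotation of an Illumina mouse bead array, with no measured value in the rule, and are 5 of the 9606 genes tested. Each was measured by 1 probe, and all 5 probes were detected on enough arrays to be tested. In the RefSeq annotation of the GRCm38.p6 build, Ifih1 lies on chromosome 2, Ddx58 on chromosome 4, Dhx58 on chromosome 11, Tlr3 on chromosome 8 and Eif2ak2 on chromosome 17.

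RNA was taken from spleen dendritic cells (DCs) of C57BL/6 mice, sorted as CD11chi and negative for CD3, DX5 and B220, and measured on 36 arrays. Per the study's methods, the mice were mixed chimeras, whose blood cells came from WT marrow carrying CD45.1 and from knockout marrow carrying CD45.2, so that DCs of both genotypes shared 1 host. They received 50 µg of poly IC, a synthetic double-stranded RNA, intraperitoneally. The PRR-/- DCs lacked both MDA5 and TLR3 and the IFNAR-/- DCs lacked the type I interferon (IFN) receptor, in both cases in all cells of the CD45.2 marrow. The groups were PRR-/- DCs at 4 h after poly IC (5 arrays), IFNAR-/- DCs at 4 h (5 arrays), WT DCs at 4 h (8 arrays), IFNAR-/- DCs at 14 h (3 arrays), WT DCs at 14 h (6 arrays) and unstimulated DCs (9 arrays). The labels give no genotype for the unstimulated DCs and no age or pooling for any sample. Mice of the study were used at 7 to 8 weeks of age per its methods, and a legend describes samples as pools of several mice. The study's text names chimeras given PBS, and also poly IC-treated PRR-/- mice, as negative controls that were pooled, so some unstimulated samples may have lacked Ifih1 and Tlr3, and the labels do not say which.

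Arrays 1 and 2 of the unstimulated, PRR-/- 4 h and IFNAR-/- 4 h groups differed less from each other than any other replicate pair and were averaged, which left 33 samples (4 PRR-/-, 4 IFNAR-/- and 8 WT at 4 h, 3 IFNAR-/- and 6 WT at 14 h, and 8 unstimulated). Between 40.6% and 48% of the probes of an array were detected. The DC markers Itgax, Zbtb46, H2-Aa, H2-Ab1 and Cd74 were detected on 36 of 36 arrays, whereas Cd8a was detected on 0 and Flt3 on 1 of 36. The probe for Ifnar1 was detected on 0 of 36 arrays, WT included, so it does not check the IFNAR-/- labels.

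RIG-I and MDA5 are cytosolic helicases that bind viral or synthetic double-stranded RNA and signal through the mitochondrial adaptor MAVS to the transcription factors IRF3, IRF7 and NF-κB. LGP2 is a relative without the signaling domains and modulates both. TLR3 meets double-stranded RNA in endosomes and signals through the adaptor TRIF, and PKR is a kinase that stops translation by phosphorylating eIF2 alpha once bound to double-stranded RNA. Poly IC is a ligand of MDA5 and TLR3, and IFN made in response acts back through its receptor on genes whose promoters hold an interferon-stimulated response element (ISRE).

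The promoter windows of the members, from 250 bases before to 50 bases after the start of the gene, are shown for the ISRE named above. A link of these letters to the measured levels was not tested. RefSeq windows (GRCm38.p6) were matched for 4 of the 5 genes, Dhx58 being the one without. All 4 genes lie on the - strand, and each window is written 5′ to 3′ along its gene, with capitals for the letters of an ISRE (GAAA, any 2 bases, GAAA) on either strand.
Ifih1, chr2:62646206-62646505, - strand: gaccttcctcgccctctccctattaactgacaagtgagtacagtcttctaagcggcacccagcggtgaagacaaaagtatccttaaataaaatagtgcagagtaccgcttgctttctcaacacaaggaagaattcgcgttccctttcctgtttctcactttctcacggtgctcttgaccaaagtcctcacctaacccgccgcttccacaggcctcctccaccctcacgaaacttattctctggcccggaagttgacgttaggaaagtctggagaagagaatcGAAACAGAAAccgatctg
Ddx58, chr4:40239776-40240075, - strand: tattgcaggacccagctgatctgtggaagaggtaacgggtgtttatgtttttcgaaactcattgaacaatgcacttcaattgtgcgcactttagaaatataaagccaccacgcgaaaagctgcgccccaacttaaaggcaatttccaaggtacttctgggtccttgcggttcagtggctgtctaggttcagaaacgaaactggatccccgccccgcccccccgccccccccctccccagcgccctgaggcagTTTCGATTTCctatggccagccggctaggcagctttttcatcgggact
Eif2ak2, chr17:78882523-78882822, - strand: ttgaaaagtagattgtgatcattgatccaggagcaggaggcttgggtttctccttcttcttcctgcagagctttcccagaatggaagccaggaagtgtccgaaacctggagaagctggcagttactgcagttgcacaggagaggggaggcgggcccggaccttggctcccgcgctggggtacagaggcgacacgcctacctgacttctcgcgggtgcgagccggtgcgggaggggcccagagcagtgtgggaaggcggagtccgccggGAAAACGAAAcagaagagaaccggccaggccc
Tlr3, chr8:45410331-45410630, - strand: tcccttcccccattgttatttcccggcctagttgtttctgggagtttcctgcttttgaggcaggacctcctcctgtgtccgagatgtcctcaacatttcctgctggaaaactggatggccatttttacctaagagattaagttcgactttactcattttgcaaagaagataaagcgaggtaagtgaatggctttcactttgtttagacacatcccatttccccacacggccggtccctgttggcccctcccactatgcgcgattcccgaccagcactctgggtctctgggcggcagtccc
The Ifih1 window held GAAACAGAAA and the Eif2ak2 window GAAAACGAAA, starting 32 and 18 bases past the start site. In the Ddx58 window the letters were GAAATCGAAA on the reverse strand, starting 2 bases past the start site, and the Tlr3 window held none. Of 32851 windows of 300 bases, 3.44% held these letters on either strand. The letters TTCNNNGAA of a gamma-activated site (GAS), also searched on both strands, were in the Eif2ak2 window alone among the 4 (TTCCCAGAA, at position -178 from the start site) and in 8.30% of all windows. No GAS letters overlapped an ISRE match in these windows. Such matches describe the letters only.

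At 4 h, 4 of the 5 members were called higher in WT than in unstimulated DCs, against 4.80% of all genes (limma, adjusted p under 0.05 over all 9606 genes and a change of at least 2-fold). Ddx58, Dhx58 and Eif2ak2 were called higher in PRR-/- DCs too (3 of 5, against 4.86% of all genes). In IFNAR-/- DCs 0 of the 5 members were called higher than in unstimulated DCs (against 1.53%) and 0 were called lower (against 1.43%), by limma and by the methods' t-test alike. With limma's neqc correction in place of the floor, Ifih1 was called higher in IFNAR-/- than in unstimulated DCs (1.41, adjusted p = 0.0281). Relative to WT DCs at 4 h, 4 of the 5 members had lower levels in IFNAR-/- DCs (against 3.80% of all genes called lower). In PRR-/- DCs 1 member, Ifih1, was lower than in WT DCs (against 0.177%). Ifih1 is deleted in these cells, so that call does not measure a response. Between the knockouts, 3 of 5 were higher in PRR-/- than in IFNAR-/- DCs (against 3.91%). Ifih1 and Tlr3 are deleted in PRR-/- DCs, so both counts of 3 of 5 hold every member intact there. The comparisons share WT and unstimulated samples.

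**Figure D1:**
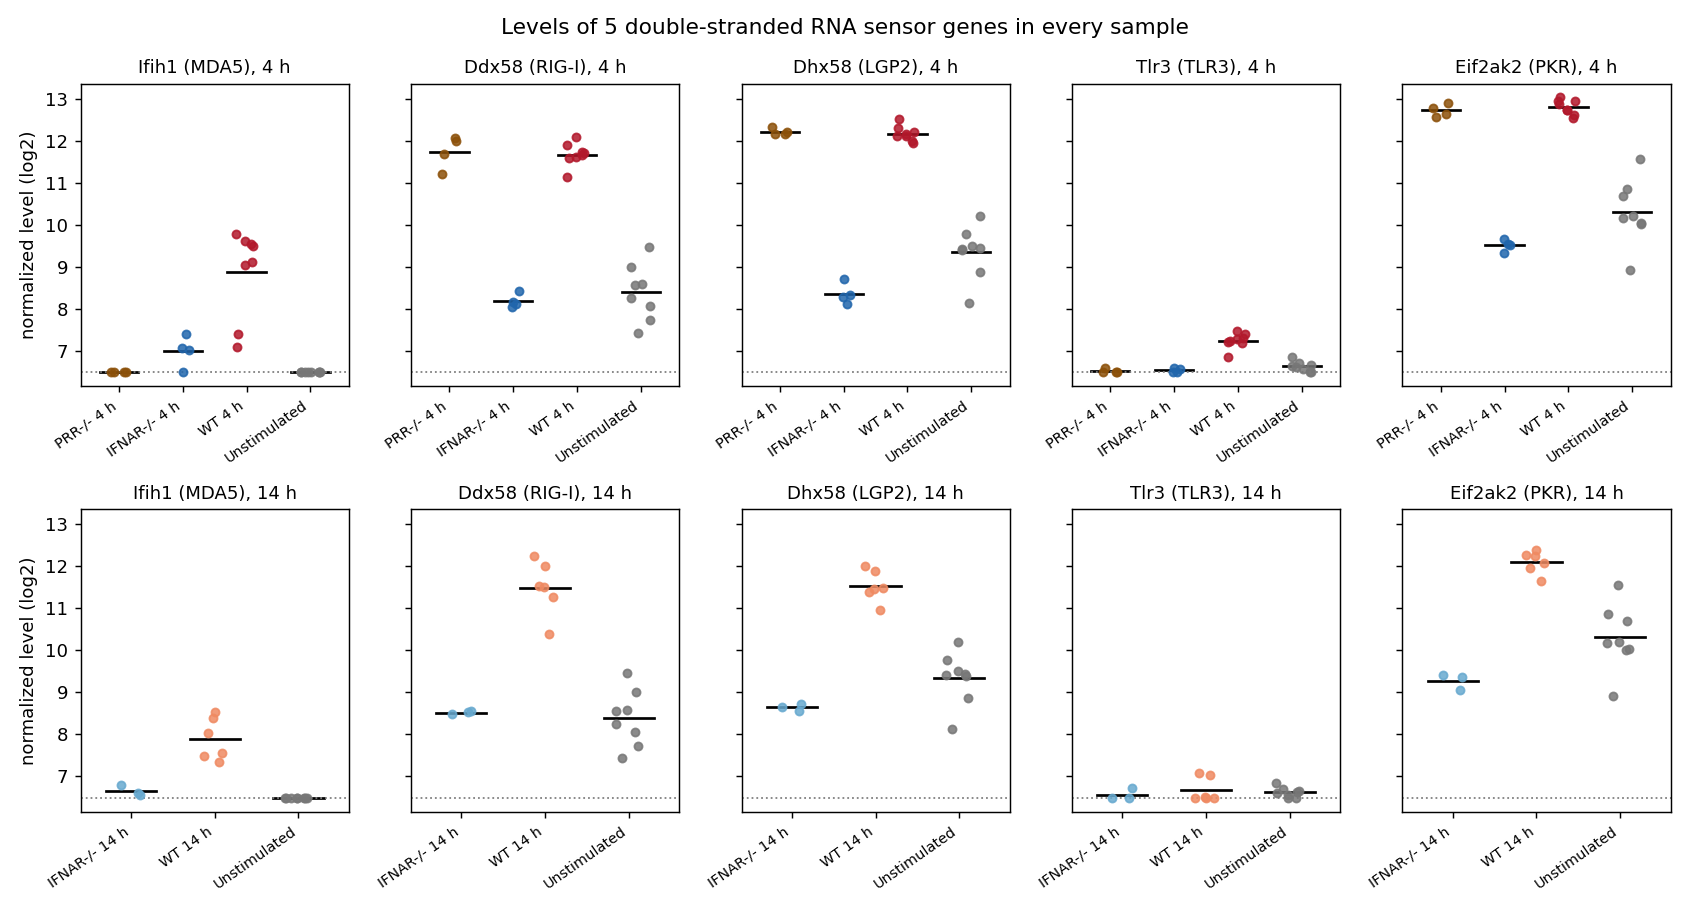
Normalized log2 level of each gene in every sample (points) at 4 h (upper row) and 14 h (lower row), with group means as bars. The same 8 unstimulated samples appear in both rows, and the dotted line marks the floor of 6.49, under which no signal was detected. Ddx58, Dhx58 and Eif2ak2 in IFNAR-/- DCs sit within or just under the range of the unstimulated samples, and Ifih1 in PRR-/- DCs sits on the floor.

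Ifih1 and Tlr3 are the genes deleted in PRR-/- DCs, and they were the members whose level differed there from WT. The Ifih1 probe was detected on 0 of 5 PRR-/- arrays and on 8 of 8 WT arrays at 4 h. Its bead signal ran between 50.1 and 95.5 in PRR-/- DCs and between 109 and 686 in WT DCs, so that the groups did not overlap. Its level was at least 5.23-fold lower in PRR-/- DCs (difference -2.39, SE 0.35, adjusted p = 0.000146). The Tlr3 probe was detected on 1 of 5 PRR-/- arrays, at a detection p of 0.0489, and on 8 of 8 WT arrays. Its normalized level was 6.49, 6.49, 6.49 and 6.59 in the 4 PRR-/- samples, against a lowest of 6.86, a median of 7.25 and a highest of 7.48 in the 8 WT samples. The groups did not overlap, and the difference of -0.73 (SE 0.10, adjusted p = 9.41e-05) was under the 2-fold limit. Where the probes lie relative to the deleted parts of both genes was not analysed here.

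**Figure D2:**
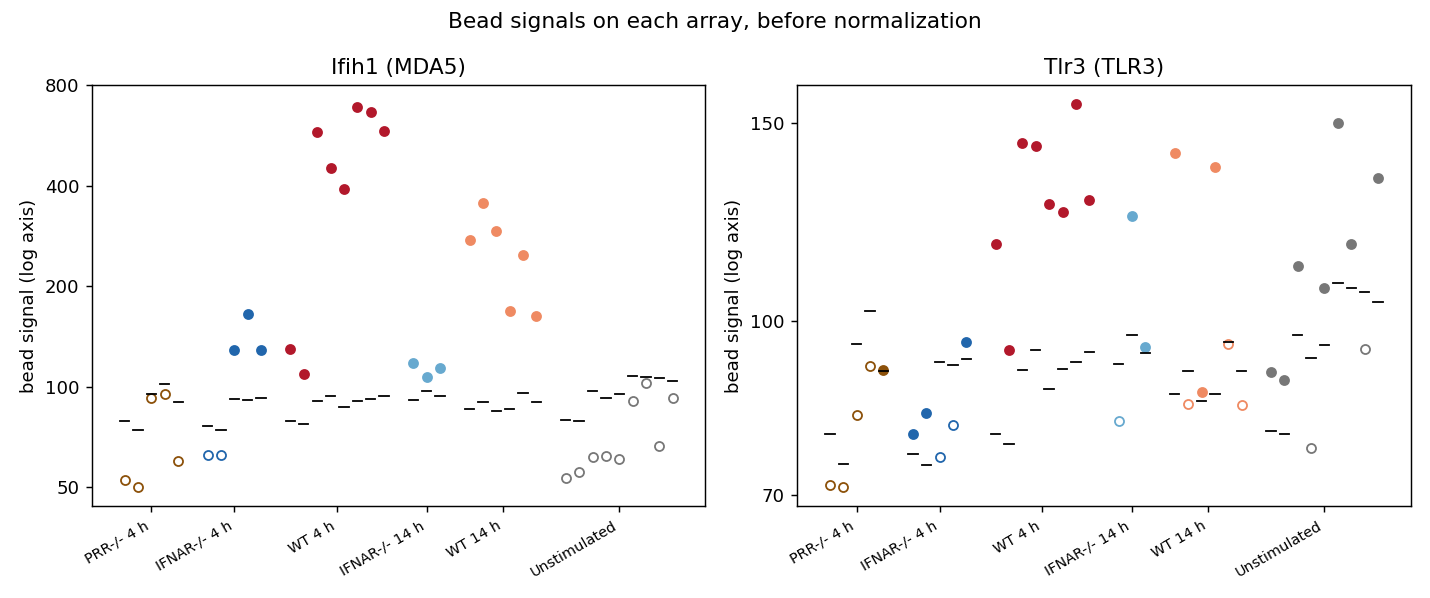
Bead signal of Ifih1 (left) and Tlr3 (right) on each of the 36 arrays before normalization, on a log axis. Filled points were detected (detection p under 0.05), open points were not, and the short bars give the lowest detected signal of that array. All Ifih1 points of PRR-/- and unstimulated DCs are open, and 2 of the 8 WT points at 4 h (109 and 130) lie far below the other 6 (391 to 686).

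The other 3 members did not differ between PRR-/- and WT DCs beyond the spread of the samples. Ddx58 had log2 levels of 11.21, 11.99, 12.06 and 11.69 in PRR-/- samples, against 11.13, 11.69 and 12.08 (lowest, median and highest) in WT samples. The ranges overlapped, and the 95% interval of the difference ran from -0.52 to 0.65. Dhx58 had 12.32, 12.20, 12.16 and 12.17 in PRR-/- samples, against 11.95, 12.14 and 12.52 in WT samples, with an interval from -0.42 to 0.50, and again the ranges overlapped. Eif2ak2 had 12.78, 12.89, 12.64 and 12.57 in PRR-/- samples, against 12.55, 12.81 and 13.03 in WT samples, with an interval from -0.61 to 0.44. These intervals leave room for differences of either sign and do not show that the genotypes were alike.

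Ddx58, the RIG-I gene, was higher than in unstimulated DCs in both groups with an intact IFN receptor. The lowest PRR-/- sample (11.21) and the lowest WT sample (11.13) both lay above the highest of the 8 unstimulated samples, whose lowest, median and highest levels were 7.43, 8.41 and 9.46. It was 10.2-fold higher in PRR-/- DCs (difference 3.35, SE 0.29, adjusted p = 2.71e-10) and 9.76-fold higher in WT DCs (difference 3.29, SE 0.23, adjusted p = 2.67e-12). The 4 IFNAR-/- samples, at 8.16, 8.04, 8.12 and 8.42, all lay inside the range of the unstimulated samples. IFNAR-/- DCs were 11.2-fold lower than WT DCs (difference -3.49, SE 0.29, adjusted p = 1.07e-10) and differed from unstimulated DCs by -0.20 (95% interval -0.79 to 0.39, adjusted p = 0.757).

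Dhx58, the LGP2 gene, had the largest difference between IFNAR-/- and WT DCs of the 5 members. Its levels were 8.70, 8.28, 8.12 and 8.32 in IFNAR-/- samples, far under the lowest WT sample, and the difference was -3.81 (SE 0.22, 14.1-fold lower, adjusted p = 1.38e-13). The 8 unstimulated samples had a lowest level of 8.14, a median of 9.42 and a highest of 10.21, so that 3 of the 4 IFNAR-/- samples lay inside their range and 1 lay just under it. Dhx58 was 7.30-fold higher in PRR-/- than in unstimulated DCs (difference 2.87, SE 0.22, adjusted p = 4.45e-11) and 7.10-fold higher in WT DCs (difference 2.83, SE 0.18, adjusted p = 3.6e-13).

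Eif2ak2, which encodes PKR, was likewise high in PRR-/- and WT DCs and low in IFNAR-/- DCs. Its levels were 9.67, 9.33, 9.54 and 9.51 in IFNAR-/- samples, against 8.91, 10.19 and 11.56 (lowest, median and highest) in unstimulated samples. IFNAR-/- DCs were 9.79-fold lower than WT DCs (difference -3.29, SE 0.25, adjusted p = 3.27e-11), with no overlap. Relative to unstimulated DCs, Eif2ak2 was 5.33-fold higher in PRR-/- DCs (difference 2.41, SE 0.25, adjusted p = 1.56e-08) and 5.65-fold higher in WT DCs (difference 2.50, SE 0.21, adjusted p = 7.33e-11).

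After poly IC, IFNAR-/- DCs at 4 h lay under unstimulated DCs in Dhx58 (difference -0.99, SE 0.22, adjusted p = 0.00194) and Eif2ak2 (difference -0.79, SE 0.25, adjusted p = 0.0275). Both passed the adjusted p, as did 11.1% of all genes in that direction, and not the 2-fold limit, so that 0 of 5 members were called in either direction, against 2.96% of all genes. At an unadjusted p under 0.05, 0 were higher and the same 2 were lower, and the methods' t-test also called 0. Neither gene passed the adjusted p under every setting of the processing. It reached 0.0748 for Dhx58 and 0.234 for Eif2ak2. Samples of these groups with the same replicate number deviated together, and with the replicate number as a block the differences were -1.15 for Dhx58 (adjusted p = 0.000154) and -1.11 for Eif2ak2 (adjusted p = 0.000647), so that 2 members were called lower. Dhx58 alone was also called without unstimulated sample 9 (-1.16) or 3 (-1.05) or without IFNAR-/- sample 1 and 2 (-1.10). The genotype of the unstimulated DCs is not labelled, so an effect of the missing receptor without poly IC and an effect of poly IC cannot be told apart here. The study reports that WT and knockout DCs given PBS did not differ significantly in expression, which the labels do not allow to be checked. In sorted populations measured in bulk, fewer cells of a type and less RNA per cell cannot be told apart either.

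**Figure D3:**
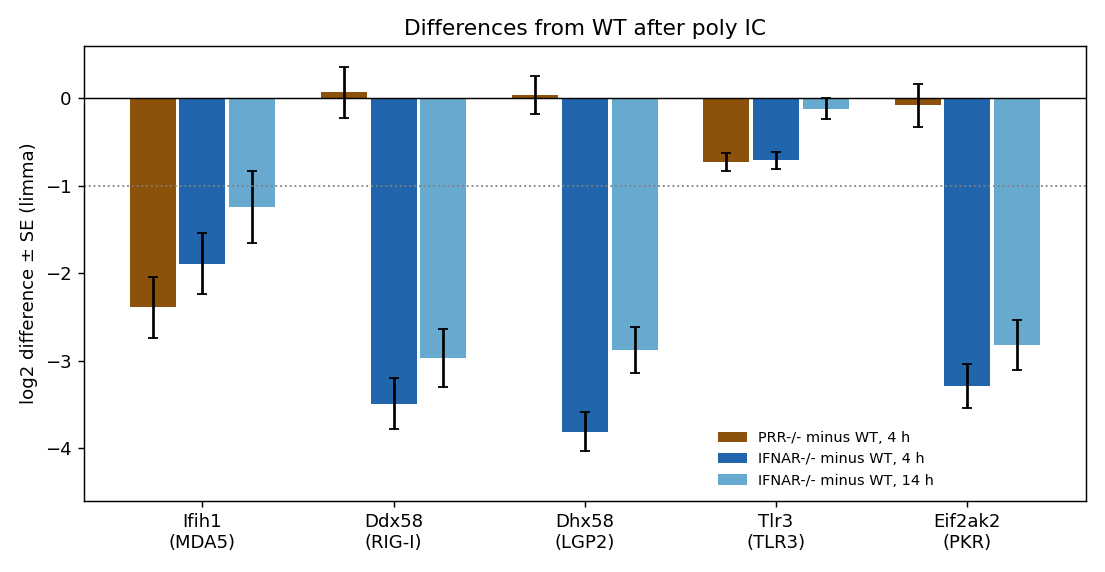
Log2 difference from WT DCs at the same time (bars, with SE from limma) for PRR-/- DCs at 4 h, IFNAR-/- DCs at 4 h and IFNAR-/- DCs at 14 h. The dotted line marks a 2-fold lower level. In IFNAR-/- DCs at 4 h, Ddx58, Dhx58 and Eif2ak2 lie between -3.81 and -3.29, whereas in PRR-/- DCs they lie between -0.08 and 0.07.

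Ifih1, the MDA5 gene, was measured just above the floor or under it outside WT DCs. It was detected on 3 of 5 arrays of IFNAR-/- DCs at 4 h, where its levels were 6.49, 7.07, 7.39 and 7.01. The 8 WT samples had levels of 7.39, 7.08, 9.49, 9.03, 9.11, 9.79, 9.62 and 9.54, so that replicates 1 and 2 overlapped the IFNAR-/- samples and the other 6 did not. In unstimulated DCs it was detected on 0 of 9 arrays. Ifih1 was at least 5.23-fold higher in WT than in unstimulated DCs (difference 2.39, SE 0.29, adjusted p = 7.78e-08), and 3.71-fold lower in IFNAR-/- than in WT DCs (difference -1.89, SE 0.35, adjusted p = 0.000128). In IFNAR-/- DCs it lay 0.50 above unstimulated DCs (95% interval -0.23 to 1.22, adjusted p = 0.406), a difference taken against the floor.

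The low Ifih1 values came from samples that were alike in other genes too. Clustering of the samples on their deviations from their group means gave 4 sets, and WT replicates 1 and 2 shared a set, called A here, with unstimulated 1 and 2, PRR-/- 1 and 2, IFNAR-/- 1 and 2 at 4 h and WT replicate 6 at 14 h. Within set A, Ifih1 in WT DCs at 4 h lay at least 0.74 above unstimulated DCs, and within the set of WT replicates 7 and 8 it lay at least 3.09 above. Against WT DCs of their own set, IFNAR-/- DCs differed by -0.74 in set A, where the IFNAR-/- sample was at the floor. They differed by -2.57 in the set of WT replicates 7 and 8, and by -2.12 in the set of WT replicates 3 to 6. For Dhx58 the same 3 differences were -3.71, -3.76 and -3.90, and they were -3.19, -3.48 and -3.64 for Ddx58. Without the 6 samples of set A, a choice made after seeing the data, the difference in Ifih1 between PRR-/- and WT DCs was -2.94 (adjusted p = 6.77e-10), taken against the floor. With only the PRR-/- and WT samples in the fit the difference of -2.39 was not called (adjusted p = 0.151), nor by the methods' t-test (adjusted p = 0.228), and 0 of 5 members were called.

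Tlr3 was close to the floor in every group. At 4 h its levels were 6.58, 6.49, 6.49 and 6.57 in IFNAR-/- samples, against 6.86, 7.25 and 7.48 (lowest, median and highest) in WT samples, and the groups did not overlap. The difference of -0.71 (SE 0.10, adjusted p = 4.77e-06) was under the 2-fold limit. WT DCs lay above unstimulated DCs (lowest 6.49, median 6.62, highest 6.84) by 0.62 (SE 0.09, adjusted p = 7.06e-07), also under the limit. The bead signals before normalization overlapped, at 94.2 to 156 in WT DCs and 77 to 150 in unstimulated DCs, where 7 of 9 arrays detected the probe.

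At 14 h, 4 of the 5 members were called higher in WT than in unstimulated DCs, against 6.21% of all genes, and 4 were called lower in IFNAR-/- than in WT DCs, against 4.92%. Tlr3 was the exception in both. In IFNAR-/- DCs 1 of 5, Eif2ak2, was called lower than in unstimulated DCs, against 0.802%.

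Ddx58 had levels of 8.49, 8.55 and 8.53 in the 3 IFNAR-/- samples at 14 h, against a lowest of 10.40, a median of 11.52 and a highest of 12.24 in the 6 WT samples. It was 7.84-fold lower in IFNAR-/- than in WT DCs (difference -2.97, SE 0.33, adjusted p = 5.45e-08). WT DCs were 8.62-fold higher than unstimulated DCs (difference 3.11, SE 0.25, adjusted p = 5.31e-11), and IFNAR-/- DCs differed from them by 0.14 (95% interval -0.51 to 0.79). Ddx58 levels thus lay apart by IFN receptor at 14 h as at 4 h.

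Dhx58 had 8.66, 8.73 and 8.55 in IFNAR-/- samples at 14 h, against 10.97, 11.47 and 12.00 (lowest, median and highest) in WT samples. The groups did not overlap, and IFNAR-/- DCs were 7.38-fold lower (difference -2.88, SE 0.26, adjusted p = 1.06e-09). WT DCs were 4.56-fold higher than unstimulated DCs (difference 2.19, SE 0.20, adjusted p = 4.21e-10). IFNAR-/- DCs lay 0.70 lower than unstimulated DCs on the log2 scale, which missed the threshold (95% interval -1.20 to -0.19, adjusted p = 0.0717).

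Eif2ak2 had 9.41, 9.37 and 9.06 in IFNAR-/- samples at 14 h, against 11.65, 12.17 and 12.39 (lowest, median and highest) in WT samples, again without overlap. It was 7.09-fold lower in IFNAR-/- than in WT DCs (difference -2.82, SE 0.29, adjusted p = 1.79e-08) and 3.48-fold higher in WT than in unstimulated DCs (difference 1.80, SE 0.22, adjusted p = 1.52e-07). IFNAR-/- DCs were 2.04-fold lower than unstimulated DCs (difference -1.03, SE 0.28, adjusted p = 0.016), with ranges that overlapped. That last call was lost when unstimulated 1 and 2, 4 or 5 or IFNAR-/- replicate 3 was left out (differences -0.97 to -0.85), and with only these groups in the fit (adjusted p = 0.205).

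Ifih1 was detected on 3 of 3 IFNAR-/- and 6 of 6 WT arrays at 14 h. Its levels were 6.79, 6.56 and 6.61 in IFNAR-/- samples, all above the floor at which the 8 unstimulated samples stood, and 7.34, 7.81 and 8.53 (lowest, median and highest) in WT samples. It was 2.37-fold lower in IFNAR-/- than in WT DCs (difference -1.24, SE 0.41, adjusted p = 0.0177), with no overlap, and at least 2.64-fold higher in WT than in unstimulated DCs (difference 1.40, SE 0.31, adjusted p = 0.000409). The call against WT was lost without IFNAR-/- replicate 2 (adjusted p = 0.0622) or 3 (adjusted p = 0.0548).

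Tlr3 at 14 h had levels of 6.49, 6.72 and 6.49 in IFNAR-/- samples, against 7.08, 6.49, 6.52, 7.04, 6.49 and 6.49 in WT samples. WT replicates 1 and 4 stood above the other 4 and belonged to the same set of alike samples, together with IFNAR-/- replicates 1 and 2. The difference of -0.12 (95% interval -0.37 to 0.13) and that of WT over unstimulated DCs, 0.06 (95% interval -0.13 to 0.25), did not pass the test.

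**Figure D4:**
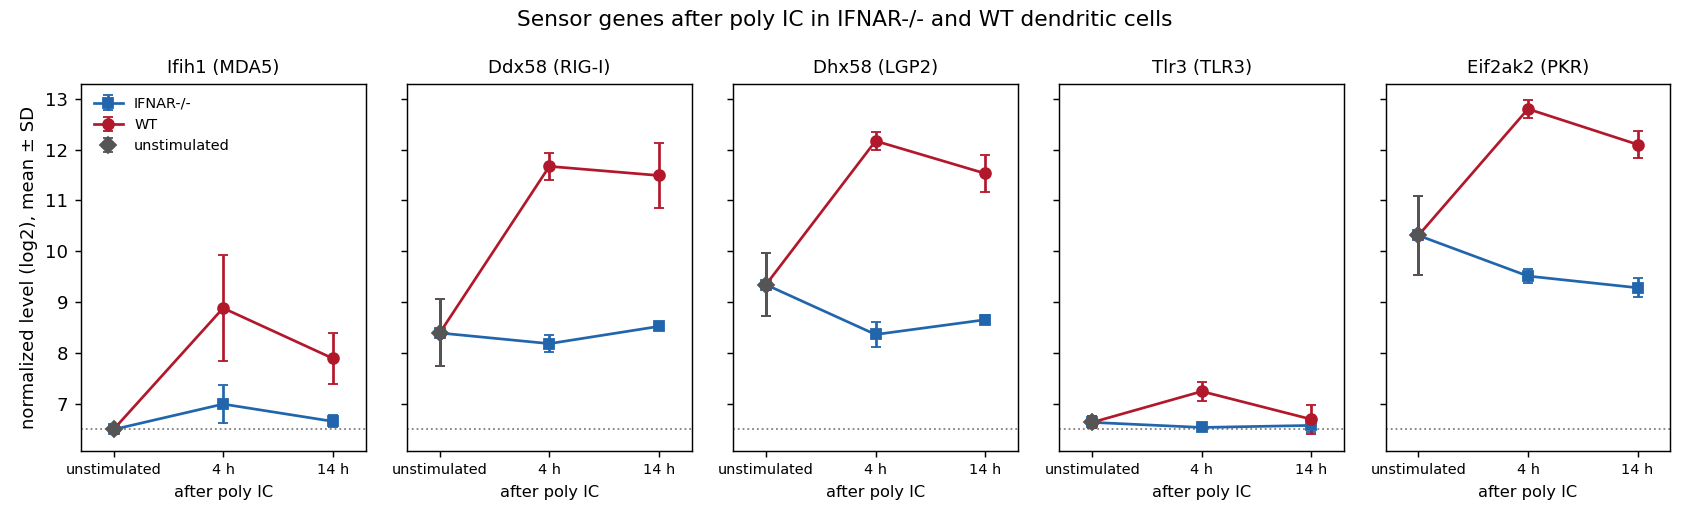
Mean log2 level with SD in IFNAR-/- DCs (squares) and WT DCs (circles) at 4 and 14 h after poly IC. The diamond is the mean of the 8 unstimulated samples, which carry no genotype label and start both lines. WT means are highest at 4 h for all 5 genes, and IFNAR-/- means stay within 1.03 of the unstimulated mean.

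Between 4 and 14 h the WT levels of 4 members were lower at the later time and that of Ddx58 did not pass the test. The differences of 14 h from 4 h were -0.99 for Ifih1 (SE 0.31, adjusted p = 0.0128), -0.64 for Dhx58 (SE 0.20, adjusted p = 0.0112), -0.70 for Eif2ak2 (SE 0.22, adjusted p = 0.0145) and -0.56 for Tlr3 (SE 0.09, adjusted p = 1.7e-05). Each was under 2-fold, so that 0 of 5 were called by limma or the methods' t-test, against 6.33% of all genes, while 4 passed the adjusted p, as did 16.5% of all genes in that direction, and the same number an unadjusted p under 0.05. Under other settings of the processing the adjusted p reached 0.135 for Ifih1 and 0.0524 for Eif2ak2, and stayed under 0.05 for Dhx58 and Tlr3. Ifih1 alone was called without WT replicate 1 (-1.20) or 2 (-1.24) at 4 h, or without WT replicate 1 (-1.01), 2 (-1.11) or 3 (-1.08) at 14 h. Ddx58 differed by -0.18 (95% interval -0.70 to 0.34). Within set A the Ifih1 difference was 0.26, and in the other sets that held both times it was -1.89 and -0.89. In IFNAR-/- DCs 0 of 5 members passed at 14 h against 4 h, with 0 at an unadjusted p under 0.05 and 0 by the methods' t-test, against 1.95% of all genes.

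The gap between IFNAR-/- and WT DCs was compared between the times. It was smaller at 14 h by 0.93 for Dhx58 (SE 0.34, adjusted p = 0.0598) and by 0.59 for Tlr3 (SE 0.16, adjusted p = 0.00916), and 0 of 5 members were called with the 2-fold limit, against 7.02% of all genes. Tlr3 alone passed the adjusted p, as did 7.67% of all genes in that direction, and the 2 genes named were those at an unadjusted p under 0.05. Under other settings of the processing the adjusted p of Tlr3 reached 0.297. Dhx58 passed both limits without IFNAR-/- sample 1 and 2 at 4 h (1.05) or WT replicate 6 at 14 h (1.02). For Ddx58 the gap changed by 0.52 (95% interval -0.38 to 1.42), for Eif2ak2 by 0.47 (95% interval -0.33 to 1.27) and for Ifih1 by 0.65 (95% interval -0.46 to 1.75). The pattern across times of these 3 genes was thus not resolved.

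Ordered by mean level, Ddx58 ran from PRR-/- and WT DCs at 4 h and WT DCs at 14 h down to IFNAR-/- DCs at 14 h, unstimulated DCs and IFNAR-/- DCs at 4 h, and the only neighbours whose samples did not overlap were WT and IFNAR-/- DCs at 14 h. Dhx58 began with the same 3 groups, of which WT DCs at 4 h overlapped both others while PRR-/- DCs at 4 h and WT DCs at 14 h did not overlap, and a gap of 2.19 separated WT DCs at 14 h from unstimulated DCs. Eif2ak2 had gaps without overlap under PRR-/- DCs at 4 h (0.62) and under WT DCs at 14 h (1.80). Neighbours in the order of Ifih1 and Tlr3 overlapped, other than IFNAR-/- DCs at 14 h and PRR-/- DCs at 4 h for Ifih1, which lay 0.16 apart.

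The spread among unstimulated DCs was wide for 3 members, with an SD of 0.66 for Ddx58, 0.62 for Dhx58 and 0.77 for Eif2ak2. Unstimulated sample 4 was the highest in each of the 3 (9.46, 10.21 and 11.56) and sample 9 the lowest (7.43, 8.14 and 8.91). The SD in the other groups ran from 0.03 to 0.64 for these genes, with the largest in WT DCs at 14 h for Ddx58. Ifih1 was at the floor in all 8 unstimulated samples, so its spread there is not known.

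Likeness was measured as the root mean square difference of the 5 mean log2 changes over unstimulated DCs. Among the members, Dhx58 and Eif2ak2 were closest (0.35) and Ddx58 and Tlr3 farthest (2.39). Of all other genes tested, Ifi214 (0.16), Apod (0.19) and Nt5c3 (0.22) lay closest to Ddx58. Pml, of nuclear bodies, lay closest to Dhx58 (0.28) and its nuclear-body partner Sp100 to Eif2ak2 (0.35). For Ifih1 the closest were Trim30b (0.37) and the IFN gene Ifna4 (0.40), but its changes were taken against the floor and its 0 in PRR-/- DCs is that of the deleted gene, so this order is only approximate. These measures describe the 5 group means only, which share the unstimulated samples.

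The genes around the members were read in 5 lists, with 81 genes tested in all. In WT DCs at 4 h, 4 of 18 tested adaptors and kinases of RNA sensing were called higher than in unstimulated DCs, against 4.80% of all genes, namely Irf7 (4.49), a transcription factor of IFN genes, Casp8 (1.48), Azi2 (1.17), which binds the kinase TBK1, and the ubiquitin ligase Traf6 (1.16). Their median was 0.42, against -0.02 over all genes. Of 16 tested regulators of RIG-I and MDA5, 1 was higher, Rnf135 (1.73), a ubiquitin ligase that activates RIG-I, which is a share near that of all genes. Of 12 genes of endosomal sensing, 2 were higher, the coreceptor Cd14 (1.73) and the single-stranded RNA receptor Tlr7 (1.25). Of 17 genes around PKR and eIF2 alpha, 1 was higher, Ppp1r15b (1.18), which helps to dephosphorylate eIF2 alpha, again near the share of all genes, and the list's median was -0.29.

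The remaining list was drawn up around other proteins that bind double-stranded RNA, and binding by each member was not checked. In WT DCs at 4 h, 10 of its 18 tested genes were higher than in unstimulated DCs (against 4.80% of all genes), with a median of 1.89, led by Oasl1 (5.92), Ifit2 (4.49), Ifit3 (4.46) and Oas1g (3.88). Set against WT DCs, 10 of the 18 had a lower level in IFNAR-/- DCs (against 3.80% of all genes), with a median of -1.95 against 0.02 over all genes, led by Oas1g (-4.92), Oas2 (-4.61), Ifit3 (-4.54) and Ifit2 (-4.19), and 1 was higher, the helicase Ddx21 (1.03), against 0.822% of all genes called higher. Oasl1, a relative of the oligoadenylate synthetases, was also higher in IFNAR-/- than in unstimulated DCs, by 2.71 at 4 h (adjusted p = 5.67e-05) and by 3.20 at 14 h (adjusted p = 3.25e-05).

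**Figure D5:**
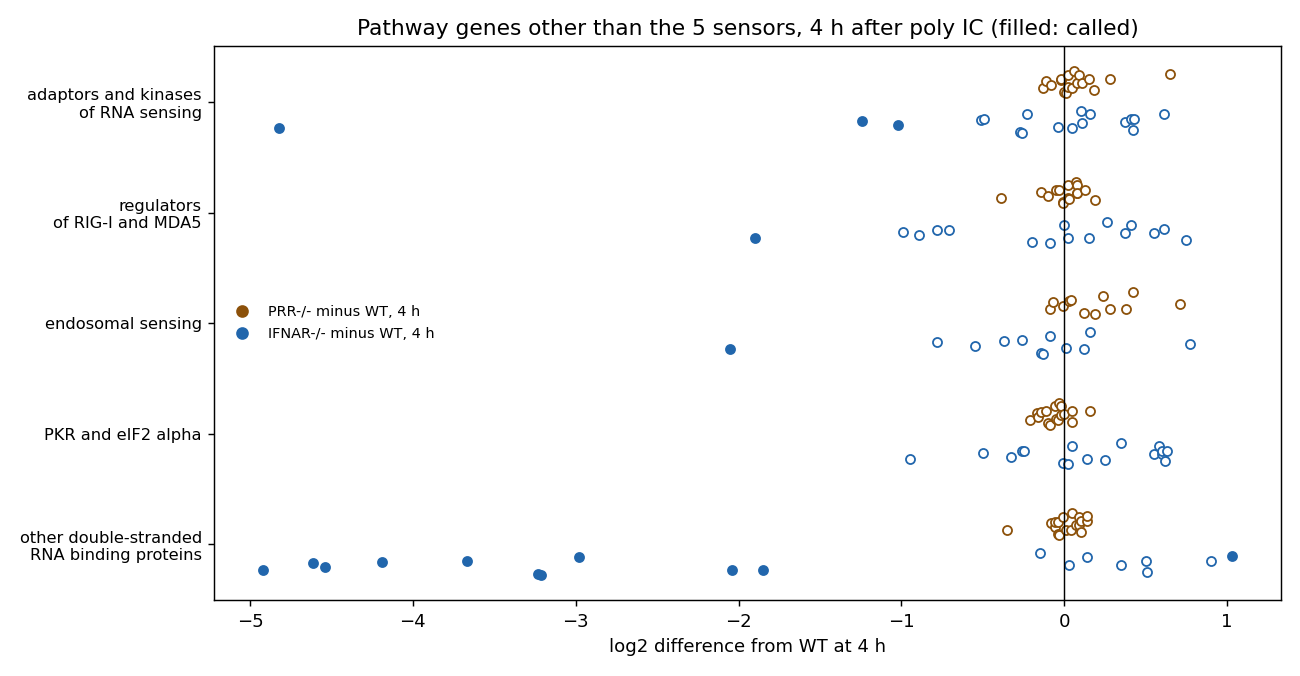
Log2 difference from WT DCs at 4 h for each tested gene of the 5 pathway lists, in PRR-/- DCs (upper points of each row) and IFNAR-/- DCs (lower points). Filled points passed the adjusted p and the 2-fold limit. No point of PRR-/- DCs is filled, and 10 of the 18 genes in the lowest row lie at -1.85 or below in IFNAR-/- DCs.

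Between PRR-/- and WT DCs at 4 h, 0 of the 81 list genes were called by limma or the methods' t-test, against 0.302% of all genes (5 were higher and 1 lower at an unadjusted p under 0.05). Between IFNAR-/- and WT DCs, the lower genes in the other lists were Irf7 (-4.82), Casp8 (-1.24) and Azi2 (-1.02) among the adaptors, Rnf135 (-1.90) among the regulators and Tlr7 (-2.05) in endosomal sensing, and 0 of 17 genes around PKR and eIF2 alpha. Mavs and Ticam1, the adaptors of the RIG-I-like receptors and of TLR3, were named for that role with their values known, and differed between IFNAR-/- and WT DCs by -0.23 (adjusted p = 0.316) and -0.27 (adjusted p = 0.0253).

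At 4 h after poly IC the kinase gene Ikbke was higher than in unstimulated DCs with or without the IFN receptor. Relative to unstimulated DCs its difference at 4 h was 1.63 in PRR-/- DCs (adjusted p = 6.74e-07), 1.40 in IFNAR-/- DCs (adjusted p = 2.1e-05) and 0.97 in WT DCs (adjusted p = 3.5e-05, under the 2-fold limit), and IFNAR-/- DCs differed from WT DCs by 0.43 (adjusted p = 0.151). At 14 h it was higher in IFNAR-/- than in unstimulated DCs by 2.06 (adjusted p = 2.06e-07) and than in WT DCs by 1.79 (adjusted p = 1.9e-06). In WT DCs at 14 h Ikbke was not among the 4 of 18 adaptors and kinases called higher than in unstimulated DCs.

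Over the 5 lists, 5 of the 81 genes in IFNAR-/- DCs were above WT DCs at 14 h and 18 were under them, against 4.72% and 4.92% of all genes. The higher genes were Cd14 (3.65), Ikbke (1.79), the chaperone Hsp90b1 (1.19), the eIF2 subunit Eif2s3x (1.18) and Ddx21 (1.14). Among the lower genes were Irf7 (-3.66), Traf6 (-1.47) and Traf2 (-1.01) of the adaptors, and Otud5 (-1.31) and Rnf135 (-1.18) of the regulators. Lgmn (-1.94) and Tlr7 (-1.70) of endosomal sensing were lower too, as were 10 of the 18 tested genes in the list around double-stranded RNA binding.

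Markers of other cells moved with some of these comparisons. Markers of red pulp macrophages, which take up old red cells in the spleen, were read as the mean level of 5 tested genes. At 4 h it ranged from 9.02 to 9.96 in PRR-/- samples and from 7.86 to 9.46 in WT samples, with Spic and C1qc called higher. At 14 h it ranged from 9.81 to 9.97 in IFNAR-/- samples and from 8.01 to 8.56 in WT samples. There C1qa (1.65), C1qb (3.88) and C1qc (3.04) were called higher, whereas Spic (-0.5) and Vcam1 (-0.25) lay lower and were not called. Both tested monocyte markers, Cd14 and Lyz2, were higher in IFNAR-/- than in WT DCs at 14 h, as were the neutrophil genes S100a8 and S100a9 (2 of 5 tested). Of 6 tested cDC1 markers 1, Itgae, was called higher there, and the median difference of the 6 was -0.06. Cd5l of red pulp macrophages and Ccr2 of monocytes were detected on 0 of 36 arrays. Between IFNAR-/- and WT DCs at 4 h, Tcf4 of plasmacytoid DCs was lower (-1.12, adjusted p = 1.04e-05) and 0 of 5 macrophage, 0 of 2 monocyte and 0 of 5 neutrophil markers were called.

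Against unstimulated DCs the markers moved in each poly IC group in which a member was called or passed the adjusted p. In WT DCs at 4 h, Cd14 (1.73), S100a8 (1.60) and Spic (1.49) were higher and the cDC2 marker Cd209a (-1.69) and Lyz2 (-1.11) lower. In IFNAR-/- DCs at 4 h, where Dhx58 and Eif2ak2 lay under unstimulated DCs, S100a8 (2.46), Cd14 (1.89), Spic (1.56) and S100a9 (1.46) were higher and Cd209a (-1.56), Irf8 (-1.39) and Xcr1 (-1.12) lower. At 14 h, in IFNAR-/- DCs, where Eif2ak2 was called lower, 4 of 5 macrophage markers were higher, among them C1qb (3.11), as were Cd14 (2.75) and S100a8 (4.31), and Cd209a (-2.90) was lower. In WT DCs at 14 h, Spic (2.49) and S100a8 (1.37) were higher and Lyz2 (-2.99), Cd209a (-2.65) and Cadm1 (-2.02) among the lower. Spic was the 1 of 5 macrophage markers called there. The others were Vcam1 (0.64), C1qa (-0.22), C1qb (-0.78) and C1qc (-0.65). In PRR-/- DCs, 3 of 5 macrophage, 1 of 2 monocyte and 2 of 5 neutrophil markers were higher. Between WT DCs at 14 h and at 4 h, Cd14 (-2.64), Lyz2 (-1.88), C1qb (-1.26) and Tcf4 (-1.22) were lower and Irf4 (1.11) higher. Of the uncalled macrophage markers, C1qa (-0.25) and C1qc (-0.87) lay lower, and Spic (1.00) and Vcam1 (0.45) lay higher.

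Markers of cDC1, the DC subset known for high Tlr3, had a median difference of -0.55 between IFNAR-/- and WT DCs at 4 h with 0 of 6 called, one of -0.13 between PRR-/- and WT DCs with 0 of 6 called, and one of -0.69 between WT DCs at 14 h and at 4 h, with Itgae and Cadm1 lower. The part of all these markers in the members' differences was not tested.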

How the data were processed

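The authors exported bead signals and detection p-values from BeadStudio for Illumina mouseRef-8 v2.0 BeadChips and deposited them as linear intensity values and p-values before normalization. They also deposited a table of log2 values, floored, quantile-normalized and filtered in GeneSpring per the study's methods, used here as an alternative.

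The analysis used R 4.3.3 and limma 3.58.1, with figures from matplotlib. A floor was set for each array at its faintest detected signal (detection p under 0.05) and fainter signals were given that value, and log2 signals of the 36 arrays were quantile-normalized. Kept probes (13328) were detected on at least 3 arrays and carried 1 gene symbol. Of 25697 probes 23978 had a gene in the GEO platform annotation, and 23962 matched RefSeq by Entrez identifier. The kept probe with the highest mean stood for a gene (9606 genes). The log2 differences between replicate arrays averaged here had a scaled median absolute deviation of 0.0744 to 0.0833, against 0.106 to 0.409 in 99 other pairs.

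All 6 groups were fitted together with limma, with Benjamini-Hochberg adjustment over 9606 genes, and called at an adjusted p under 0.05 and a 2-fold change. Samples entered this fit as independent. The labels do not say which WT and knockout samples shared hosts, so the p-values between genotypes ignore that pairing. A fold against a group undetected on all its arrays was taken against the floor and is written "at least". Intervals are 95%. The labels do not say whether replicates came from separate mice or pools, so p-values measure only the spread between these samples, which may be technical. The depth of an array is not a count, and the number of arrays limits precision. Same-numbered samples correlated in their deviations (0.123 to 0.688, 0.316 to 0.742 and 0.364 to 0.86 over 4 pairs) for PRR-/- over unstimulated, IFNAR-/- over unstimulated and PRR-/- over IFNAR-/- DCs at 4 h, and not in every pair elsewhere. The members and lists were chosen with earlier results of these data known. Named list genes were the up to 4 called genes of largest change per list and comparison. Alternatives were median scaling in place of quantiles, neqc (limma's background correction with detection p-values, then quantiles), no floor, all 36 arrays, other filters and probes, other fits, the replicate number or the set of alike samples as a block, and samples left out.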

Additional observations from a re-analysis of the deposited data

Results flagged for a closer look

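The gap in Tlr3 between IFNAR-/- and WT DCs differed between the times by the test of that difference itself (0.59, SE 0.16, adjusted p = 0.00916). It was -0.12 at 14 h and -0.71 at 4 h, and the change was under 2-fold. Under other settings of the processing the adjusted p reached 0.297. The median Tlr3 level at 14 h was 6.5 in WT and 6.49 in IFNAR-/- DCs, at or next to the floor, which limits the gap there.

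In PRR-/- DCs at 4 h, replicate 5 had a Tlr3 level of 6.59 while the other 3 samples stood at the floor of 6.49, so that its gap to them was the whole range of the group (a share of 1, above Dixon's 95% critical value for 4 samples). Since the other 3 values were set to the floor, any value above it gives this share, which therefore says only that 1 sample was detected. Of 23 groups of values tested in this way 1 stood out, and chance alone gives about 1 in 20.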

How the results depend on the processing

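Settings were changed one at a time. In WT over unstimulated DCs (both times), PRR-/- over unstimulated DCs, IFNAR-/- against WT DCs (both times), PRR-/- against IFNAR-/- DCs and IFNAR-/- DCs at 14 h against 4 h, the number of members called stayed within 1.5 times under each alternative. In IFNAR-/- over unstimulated DCs at 4 h, 0 members were called, against 1 with median scaling, 2 with neqc (Ifih1 higher and 1 lower), 2 with the replicate block, 2 with the set block, 2 with no fold limit and 1 without set A (0 to 1 with single samples left out). In PRR-/- against WT DCs, 1 was called, against 2 with neqc, 0 with only the groups compared, 0 by the methods' t-test and 2 with no fold limit. In IFNAR-/- over unstimulated DCs at 14 h, 1 was called, against 0 with median scaling, with only the groups compared, by the methods' t-test and without set A (0 to 1 with single samples left out). In WT DCs at 14 h against 4 h, 0 were called, against 2 with neqc, 4 with no fold limit and 1 without set A (0 to 1 with single samples left out). For the change of the IFNAR-/- gap with time, 0 were called, against 1 with median scaling, neqc, the set block or no fold limit (0 to 1 with single samples left out). The causes were not tested.

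Uncalled differences changed sign as follows. With median scaling, Tlr3 was 0.12 in PRR-/- over unstimulated DCs, 0.01 in IFNAR-/- over unstimulated DCs at 4 h, 0.12 in PRR-/- over IFNAR-/- DCs (0.01 without set A) and -0.10 in IFNAR-/- DCs at 14 h over 4 h. With the set block that last value was -0.06 and that of Eif2ak2 0.09, and with the replicate block Tlr3 was 0.01 in IFNAR-/- over unstimulated DCs at 14 h. Ddx58 in PRR-/- over WT DCs was -0.04 with all 36 arrays. With single samples left out, it ran from -0.04 to 0.24, Ddx58 in WT DCs at 14 h over 4 h from -0.33 to 0.04, Tlr3 in WT over unstimulated DCs at 14 h from -0.02 to 0.10 and Tlr3 in IFNAR-/- DCs at 14 h over 4 h from -0.04 to 0.07.

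The replicate block, where the numbers do not pair samples, removed the call of Ifih1 in IFNAR-/- against WT DCs at 14 h (-1.10, adjusted p = 0.0593). With neqc, Tlr3 passed the 2-fold limit in WT over unstimulated DCs (1.22), PRR-/- (-1.57) and IFNAR-/- (-1.54) against WT DCs at 4 h and WT DCs at 14 h over 4 h (-1.14). Of 480 list counts 446 stayed within 1.5 times. With neqc, the regulators of RIG-I and MDA5 had 4 called in WT over unstimulated DCs at 4 h (1 otherwise), 3 in IFNAR-/- against WT DCs at 4 h (1 otherwise) and 4 at 14 h (2 otherwise), and at 4 h endosomal sensing had 2 (1 otherwise) and PKR and eIF2 alpha 1 (0 otherwise). Neqc also changed the share of higher calls in WT over unstimulated DCs at 4 h to 53.6%, against 66.7%. Median scaling moved the median of all genes to 0.14 in WT over unstimulated DCs at 14 h and to -0.13 in IFNAR-/- over WT DCs. Signals of Ifih1 and Tlr3 near the floor and the number of arrays limit the precision.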
